A study of Mus musculus with 6 samples.

Results

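The nuclear genes of respiratory complex I were taken as every row of the deposited count table whose symbol begins with Nduf, leaving out pseudogene (-ps) and related-sequence (-rs) names. This gave 51 of the 22192 genes in the table, of which 46 were abundant enough to test. RNA came from RAW 264.7, a macrophage-like cell line of BALB/c mouse origin, in 3 libraries labelled ASPS-A1 and 3 labelled control. ASPS-A1 is an acidic polysaccharide fraction from Acanthopanax senticosus leaves, given at 200 µg/mL for 24 h. What the control cells received is not given in the sources used here, nor whether the libraries of a group came from separate cultures, so p-values measure only the spread between these libraries.

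Complex I, or NADH:ubiquinone oxidoreductase, is the entry point of the mitochondrial respiratory chain. Its matrix (peripheral) arm takes electrons from NADH through a flavin and a chain of iron-sulphur clusters to ubiquinone, and its membrane arm pumps protons. The membrane core is encoded by mitochondrial DNA (the ND genes), the redox core and a large shell of accessory subunits by nuclear genes, and assembly factors help to build the enzyme without staying in it. In macrophages the balance between respiration and glycolysis shifts with activation.

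Most of these genes were moderately higher with ASPS-A1. Of the 46 tested, 41 rose, 1 (Ndufaf1) fell and 4 (Ndufs1, Ndufv3, Ndufb1 and Ndufaf7) did not pass an adjusted p of 0.05 in edgeR's quasi-likelihood test. Over all 11686 genes tested, 65.3% were called, 32.4% higher and 33% lower. The median log2 fold change, ASPS-A1 minus control, was 0.62 for the 46 and −0.02 for all genes. None of the 46 reached a 2-fold rise, 25 rose at least 1.5-fold, and the values ran from −0.87 to 0.97. The 3 libraries of the groups did not overlap in scaled level for 44 of the 46, 42 of them higher with ASPS-A1. Among all genes tested 68.5% did not overlap, and 33.7% did so with the higher level in ASPS-A1.

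**Figure D1:**
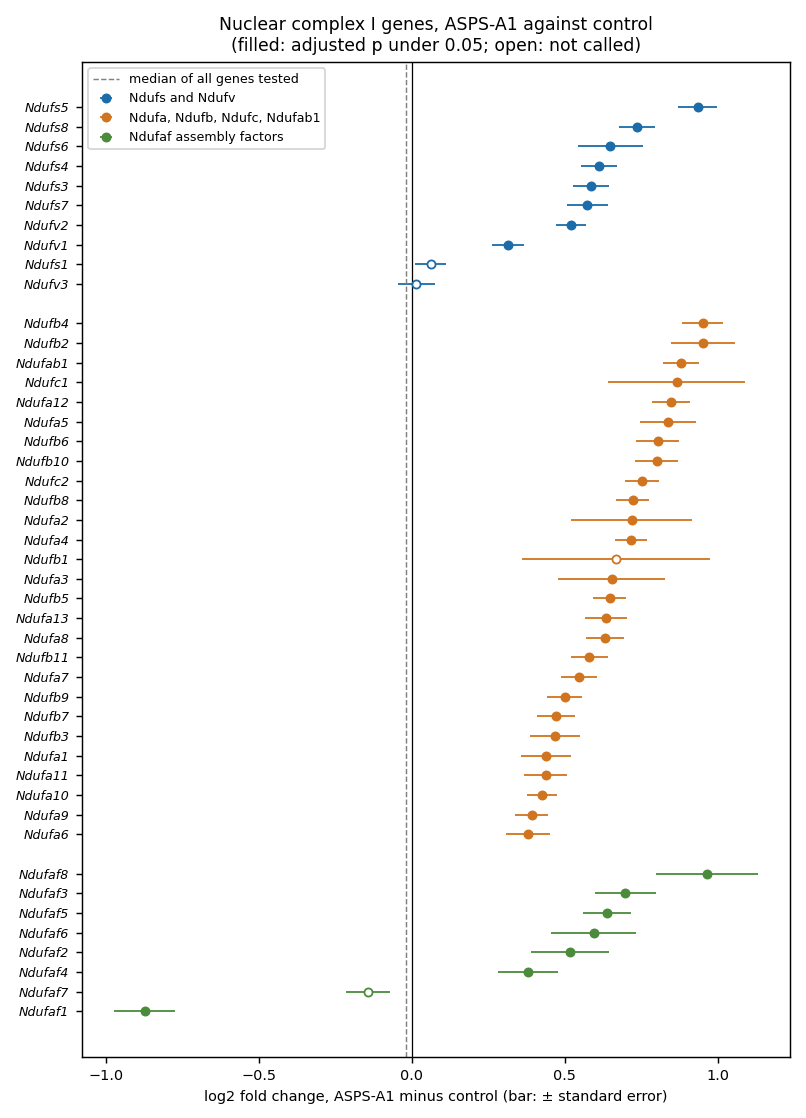
Log2 fold change (ASPS-A1 minus control) with its standard error for genes that were tested, by class, with filled points for an adjusted p under 0.05 and the median of all genes dashed. The 27 Ndufa, Ndufb, Ndufc and Ndufab1 genes all lie between 0.38 and 0.95, while Ndufaf1 at −0.87 is the only called fall.

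Summed, the 46 transcripts made up 3815, 4113 and 3650 CPM (counts scaled to a common library size with TMM factors) in the ASPS-A1 libraries. The control libraries held 2661, 2773 and 2561 CPM. The groups were thus apart, at 3859 ± 235 against 2665 ± 106 CPM (SD, n = 3), and no test was made on a sum over chosen genes. These values are relative to all messenger RNA of a library, and in bulk RNA a change in the cells present and a change in RNA per cell cannot be told apart.

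Facts of the whole series bear on these values. Library totals were 19989318 to 22179544 counts with ASPS-A1 and 23113454 to 26137127 in control. All 8 macrophage markers examined were expressed, with a summed level of 2964 to 3121 CPM with ASPS-A1 and 2012 to 2040 CPM in control. Among them Csf1r was not called, at a mean of 300 against 321 CPM (log2 fold change −0.095, adjusted p = 0.0749). Each of the other macrophage markers was called higher. The marker lists of neutrophils, B cells, T cells, epithelium and fibroblasts each summed to at most 0.815 CPM in any library. The 4 endothelial markers summed to 12.6 to 13.9 CPM with ASPS-A1 and 6.85 to 8.15 CPM in control, nearly all of it Pecam1. Scaling by library totals alone moved the median of all genes to −0.22 and the calls over all genes to 21.6% higher and 46.7% lower (68.3% in all). Under that scaling 39 of the 46 were higher and 4 lower, and their median was 0.43. A change of scaling moves all genes of a library alike. The distance to the median of all genes (0.64 under both scalings) was thus nearly fixed by construction. With the length and GC offsets described further on, that distance was 0.22.

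Ndufs and Ndufv genes carry the redox core of the matrix arm. Of 12 in the table, 11 were tested, 9 rose and 0 fell (8 and 2 with library totals), with a median log2 fold change of 0.57. The catalytic subunits of the redox path include Ndufv1, Ndufv2, Ndufs1, Ndufs3, Ndufs7 and Ndufs8. Ndufs4, Ndufs5, Ndufs6 and Ndufv3 share the naming but are accessory subunits. The untested entry, Ndufs6b, had no count in any library, which allows up to 0.163 CPM in the shallowest library (3 counts, counting error only).

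Ndufs5, an accessory subunit on the intermembrane-space side, had the largest change of this class. It stood at 88.0, 88.0 and 79.8 CPM with ASPS-A1 and at 42.9, 48.4 and 42.6 CPM in control. Each treated library was well above each control library, a 1.91-fold rise (log2 fold change 0.93 ± 0.06 SE, adjusted p = 2.53e-17). Ndufs8, an iron-sulphur subunit next to the ubiquinone site, followed at 123, 139 and 114 CPM against 75.2, 78.2 and 72.7 CPM. That rise was 1.67-fold (log2 fold change 0.74 ± 0.06, adjusted p = 9.92e-15). Ndufs6 (log2 fold change 0.65), Ndufs4 (0.61), Ndufs3 (0.58), Ndufs7 (0.57), Ndufv2 (0.52) and the flavin-binding Ndufv1 (0.31) also rose, in each case with no overlap between groups.

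Ndufs1, the largest iron-sulphur subunit, measured 129, 129 and 133 CPM with ASPS-A1 and 128, 123 and 124 CPM in control. Its log2 fold change of 0.06 ± 0.05 did not pass the test (adjusted p = 0.286). Under library totals it was −0.13 (adjusted p = 0.0177), a called fall. Ndufv3, a small accessory subunit beside the flavin module, measured 89.3, 93.4 and 79.6 CPM with ASPS-A1. In control it measured 84.5, 93.4 and 81.9 CPM, so the groups overlapped (log2 fold change 0.01 ± 0.06, adjusted p = 0.848). With library totals its value was −0.18 (adjusted p = 0.00889).

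Accessory subunits with the names Ndufa, Ndufb, Ndufc and Ndufab1 make up the shell around the core. The table held 31, of which 27 were tested, 26 rose and 0 fell, with a median log2 fold change of 0.65. The untested entries were Ndufb4c and Ndufb11b with no count in any library, Ndufb4b with 6 counts in ASPS-A1 replicate 2 and 8 in control replicate 2, and Ndufa4l2. Ndufa4l2, a hypoxia-inducible relative of Ndufa4, had counts of 1, 2 and 0 with ASPS-A1 and 2, 0 and 0 in control. It was therefore barely detectable in either group.

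Among the Ndufa genes, 13 of 13 tested rose, with a median of 0.63. With the length and GC offsets 7 of the 13 rose, 0 fell and the median was 0.16. Ndufa12, a matrix-arm subunit, rose most, from 79.2, 81.7 and 76.5 CPM in control to 135, 161 and 131 CPM (log2 fold change 0.85 ± 0.06, adjusted p = 2.55e-14). Ndufa5, also of the matrix arm, measured 33.8, 38.0 and 28.6 CPM against 17.2, 20.3 and 18.8 CPM in control (log2 fold change 0.84 ± 0.09, adjusted p = 1.02e-10). In both genes the lowest treated library exceeded the highest control library by more than the range of the controls.

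At the other end were Ndufa6, a matrix-arm subunit that binds the acyl carrier protein, and Ndufa9, which lies near the junction of the arms. Ndufa6 measured 104, 113 and 87.6 CPM with ASPS-A1 and 72.6, 81.9 and 79.7 CPM in control (log2 fold change 0.38 ± 0.07, adjusted p = 7.02e-05). Ndufa9 measured 120, 127 and 117 CPM against 97.0, 91.8 and 89.1 CPM (log2 fold change 0.39 ± 0.05, adjusted p = 1.62e-08). Even these smallest rises of the subfamily left the groups apart.

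Ndufa4 was named as a complex I subunit but is now counted with complex IV, cytochrome c oxidase. It had the highest level of all 46 per kilobase of transcript, 250 CPM per kb with ASPS-A1 against 152 in control. By library it measured 150, 161 and 145 CPM with ASPS-A1 and 89.7, 95.1 and 93.2 CPM in control (log2 fold change 0.72 ± 0.05, adjusted p = 2.28e-16). The other Ndufa genes that rose were Ndufa2 (log2 fold change 0.72), Ndufa3 (0.65), Ndufa13 (0.63), Ndufa8 (0.63), Ndufa7 (0.55), Ndufa1 (0.44), Ndufa11 (0.44) and Ndufa10 (0.43).

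Ndufb genes sit in the membrane arm. Of 11 tested, 10 rose and 0 fell, and the median was 0.67. With the offsets 7 rose, 0 fell and the median was 0.26. Ndufb4 measured 83.0, 93.5 and 78.4 CPM with ASPS-A1 against 43.0, 47.5 and 41.3 CPM in control, a 1.93-fold rise (log2 fold change 0.95 ± 0.07, adjusted p = 1.29e-16). Ndufb2 measured 27.1, 25.2 and 20.7 CPM against 12.1, 13.98 and 11.7 CPM (log2 fold change 0.95 ± 0.10, adjusted p = 6.89e-11). Both lay close to a doubling without reaching it.

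The smallest rises of the Ndufb genes were in Ndufb3 and Ndufb7. Ndufb3 measured 67.4, 81.7 and 65.7 CPM with ASPS-A1 and 52.2, 57.1 and 46.0 CPM in control (log2 fold change 0.47 ± 0.08, adjusted p = 3.03e-05). Ndufb7 measured 71.8, 76.0 and 67.9 CPM against 52.5, 52.0 and 51.2 CPM (log2 fold change 0.47 ± 0.06, adjusted p = 6.20e-09), with the lowest coefficient of variation over control libraries of all 46 genes (1.29%). Ndufb8 was the most abundant true complex I subunit per kilobase, at 231 CPM per kb with ASPS-A1 and 140 in control. It measured 152, 169 and 150 CPM with ASPS-A1 and 99.8, 94.8 and 91.4 CPM in control (log2 fold change 0.72 ± 0.05, adjusted p = 3.74e-16). Ndufb6 (0.80), Ndufb10 (0.80), Ndufb5 (0.65), Ndufb11 (0.58) and Ndufb9 (0.50) also rose.

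Ndufb1 was the only tested gene with an Ndufa, Ndufb, Ndufc or Ndufab1 name that did not pass. It measured 35.2, 39.6 and 23.8 CPM with ASPS-A1 and 16.5, 27.7 and 17.9 CPM in control, so control replicate 2 lay above ASPS-A1 replicate 3. The log2 fold change of 0.67 ± 0.31 had an adjusted p of 0.125. Without control replicate 2 it was 0.93 with an adjusted p of 0.0112, and limma-voom called it (0.68, adjusted p = 0.000208). Limma-voom called 65.2% of all genes and DESeq2, which did not call Ndufb1, 63%.

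Ndufab1, the mitochondrial acyl carrier protein, occurs in both arms of the complex and also serves mitochondrial fatty acid synthesis. It measured 111, 119 and 103 CPM with ASPS-A1 against 59.9, 61.8 and 59.0 CPM in control (log2 fold change 0.88 ± 0.06, adjusted p = 9.09e-18). Ndufc1 and Ndufc2 are small membrane-arm subunits. Ndufc2 measured 112, 116 and 111 CPM against 66.2, 68.0 and 67.4 CPM (log2 fold change 0.75 ± 0.05, adjusted p = 1.78e-16), with little spread in either group. Ndufc1 measured 40.7, 45.6 and 31.6 CPM against 17.6, 27.1 and 19.9 CPM (log2 fold change 0.87 ± 0.22, adjusted p = 0.0213), where the highest control library came close to the lowest treated library. This call was lost without ASPS-A1 replicate 1 (adjusted p = 0.0753) and when control replicate 3 was left out (adjusted p = 0.0796).

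The Ndufs and Ndufv genes had a median log2 fold change that differed by −0.079 from that of the accessory genes, and this difference was not tested. The difference was −0.14 when either ASPS-A1 replicate 3 or control replicate 2 was left out, and −0.054 with the length and GC offsets described further on. With classes by structure, the 7 catalytic subunits had a median of 0.52 (6 rose, 0 fell) and the 30 others 0.65 (28 rose, 0 fell). By position, the 16 genes of the matrix arm had a median of 0.56 (14 rose) and the 20 of the membrane arm 0.65 (19 rose). The median transcript length was 1623 nt for the catalytic subunits and 748 nt for the others.

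Levels per kilobase, which allow genes to be compared with each other, spread about as widely in both groups. Over 37 subunits the median was 65.6 CPM per kb in control, from 17.3 (Ndufc1) to 140 (Ndufb8), and 30 lay within 2-fold of the median. With ASPS-A1 the median was 98.1 CPM per kb, from 31.4 (Ndufc1) to 231 (Ndufb8), and 32 lay within 2-fold of it. Ndufc1 was thus the scarcest and Ndufb8 the most abundant subunit in both groups. The 8 Ndufaf assembly factors were lower, with a median of 12.9 CPM per kb in control and 14.5 with ASPS-A1.

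**Figure D2:**
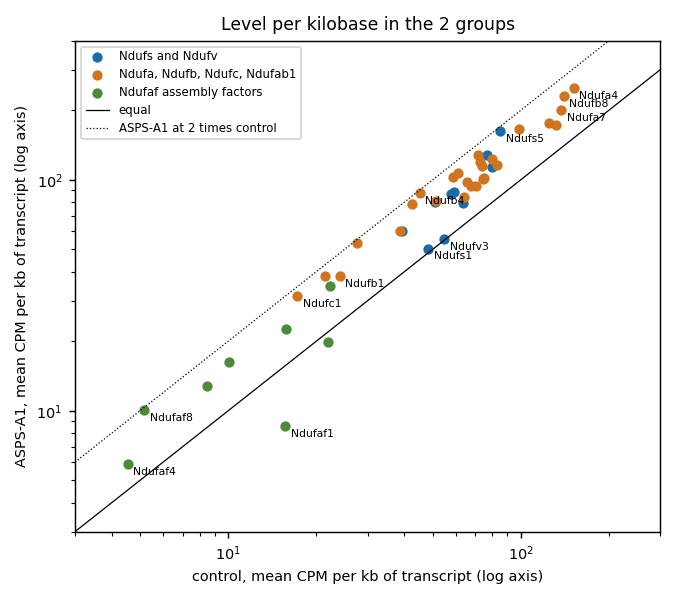
Mean CPM per kilobase of transcript in control (horizontal) and with ASPS-A1 (vertical), both on log axes, for genes that were tested. Most subunits lie between the line of equality and the dotted line of 2 times control, Ndufs1 and Ndufv3 lie close to equality, and Ndufaf7 and Ndufaf1 lie below it (Ndufaf1 at 8.57 against 15.7 CPM per kb).

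Assembly factors named Ndufaf moved in both directions. All 8 were tested, 6 rose, 1 fell and 1 did not pass (5 and 2 called higher and lower with library totals), with a median of 0.56. Ndufaf8 rose most, at 8.59, 8.48 and 6.62 CPM against 3.83, 4.26 and 4.04 CPM in control (log2 fold change 0.97 ± 0.17, adjusted p = 1.88e-06). It stabilises Ndufaf5, which modifies an arginine of Ndufs7. Ndufaf5 was the most abundant assembly factor per kilobase, and it also rose, from 24.8, 28.0 and 25.3 CPM to 39.0, 40.1 and 42.6 CPM (log2 fold change 0.64 ± 0.08, adjusted p = 8.28e-10).

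Ndufaf3 and Ndufaf4 work as a pair on the ubiquinone module. Ndufaf3 measured 24.9, 23.3 and 24.4 CPM with ASPS-A1 against 17.5, 12.9 and 14.4 CPM in control (log2 fold change 0.70 ± 0.10, adjusted p = 5.17e-08). Ndufaf4, at 23.6, 19.5 and 21.2 CPM against 15.2, 16.5 and 17.7 CPM, rose by 0.38 on the log2 scale (adjusted p = 0.000724). Its value was 0.18 (adjusted p = 0.101) under library totals. Ndufaf6 (0.59) and Ndufaf2 (0.52), the latter a paralog of Ndufa12 that acts late in assembly, also rose. The value of Ndufaf6 was 0.37 without ASPS-A1 replicate 3, and that of Ndufaf2 was 0.33 without ASPS-A1 replicate 2, and both still passed. Ndufaf2 shares 65.6% of its exon length with the annotated gene B230220B15Rik, and whether counting used strand is not given in the sources used here.

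Ndufaf1 was the only gene of the 46 called lower. It measured 12.4, 12.3 and 12.6 CPM with ASPS-A1 and 21.5, 24.7 and 22.2 CPM in control, so the treated libraries lay tightly together below every control library. The fall was 1.83-fold (log2 fold change −0.87 ± 0.10, adjusted p = 1.47e-10), and under every alternative run its value stayed between −1.16 and −0.81. Ndufaf7, a methyltransferase, measured 34.2, 35.9 and 34.4 CPM against 38.6, 39.1 and 37.7 CPM. Its groups did not overlap, but the log2 fold change of −0.14 ± 0.07 did not pass (adjusted p = 0.0804), while with library totals it was −0.34 (adjusted p = 0.000104) and with length and GC offsets −0.33 (adjusted p = 3.96e-05).

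Ndufaf1 works in a membrane assembly complex that builds the early membrane arm, with partners that include Ecsit, Acad9, Tmem126b and Tmem186. These partners were picked out after the values were seen. Tmem186 fell as well, to 8.93, 7.55 and 9.16 CPM from 15.1, 11.5 and 16.2 CPM (log2 fold change −0.74 ± 0.13, adjusted p = 2.56e-06). Ecsit, also described as an adaptor of Toll-like receptor signalling, rose (0.25, adjusted p = 0.00495), as did Tmem126b (0.26, adjusted p = 0.0244), but both calls rest on the scaling (0.058 and 0.069 with library totals). Leaving out control replicate 3 ended both calls (Ecsit adjusted p = 0.0844, Tmem126b 0.0829), and leaving out ASPS-A1 replicate 3 or control replicate 1 ended that of Tmem126b (0.115 and 0.132). Acad9 had a value of −0.05 (adjusted p = 0.564), but with library totals it was called lower (−0.24, adjusted p = 0.00297) and with the length and GC offsets it had 0.12 (adjusted p = 0.119). Ndufaf1 and Tmem186 were lower under each of these scalings, while the calls of the other 3 partners named here depended on the scaling.

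Of 10 further assembly factors that lack the Nduf name, these included, 6 rose, 2 (Tmem186 and Dmac2) fell and 2 did not pass, with a median of 0.23. The highest value was that of Dmac1 (0.42, adjusted p = 9.28e-05), and Dmac2 had −0.21 (adjusted p = 0.0381), a call lost without each of ASPS-A1 replicates 1 and 2 and control replicates 1 and 2 (adjusted p = 0.114, 0.0802, 0.122 and 0.0732). It was not called by DESeq2 (adjusted p = 0.0707) or with relative log expression factors (0.0514). With library totals 1 rose and 4 fell. With the length and GC offsets 0 rose and 2 fell, and Dmac1 was then at −0.051.

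The 7 complex I subunits encoded by mitochondrial DNA went mostly the other way. ND1, ND2, ND3, ND5 and ND6 fell, ND4 rose and ND4L did not pass, with a median of −0.36. The median was −0.55 with library totals (1 higher, 5 lower) and −0.76 with the length and GC offsets (1 higher, 6 lower). ND3 measured 21.8, 21.6 and 17.0 CPM with ASPS-A1 against 51.2, 62.1 and 61.8 CPM in control, a 2.90-fold fall (log2 fold change −1.54 ± 0.09, adjusted p = 1.91e-16). ND5 measured 2025, 2012 and 2220 CPM against 3000.0, 2914 and 3391 CPM (log2 fold change −0.57 ± 0.05, adjusted p = 1.12e-12). The treated libraries were below the controls in each of these falls.

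ND4 was the exception, at 4079, 4469 and 4497 CPM against 2898, 2930 and 2965 CPM (log2 fold change 0.57 ± 0.05, adjusted p = 1.83e-14). ND1 fell by 0.36 on the log2 scale (adjusted p = 1.32e-08) and ND2 by 0.33 (adjusted p = 2.15e-07). ND6 had −1.10 ± 0.20 (adjusted p = 0.00779) and lies on the other strand beside ND5, so without a known strand setting its counts are less certain. With a block for library number its adjusted p was 0.0613. ND4L, at 172, 195 and 148 CPM against 111, 168 and 149 CPM, overlapped between groups (log2 fold change 0.27 ± 0.20, adjusted p = 0.314), although limma-voom called it higher (adjusted p = 0.0117), and with the length and GC offsets it was called lower (−0.39, adjusted p = 0.0499).

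Summed over the 7 genes, the mitochondrially encoded level was 9201 ± 329 CPM with ASPS-A1 and 9948 ± 615 CPM in control (SD, n = 3). Under TMM scaling the summed nuclear level was higher in each treated library than in each control library, whereas these sums overlapped. As a share of all counts the ND genes were lower in each treated library, at 0.835%, 0.853% and 0.890% against 1.01%, 1.04% and 1.15% in control. The nuclear share was still higher in each treated library (0.342% to 0.379% against 0.276% to 0.293%). The libraries were enriched on poly(A), and mitochondrial transcripts differ from nuclear ones in their polyadenylation. How this affects the ND counts was not tested.

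**Figure D3:**
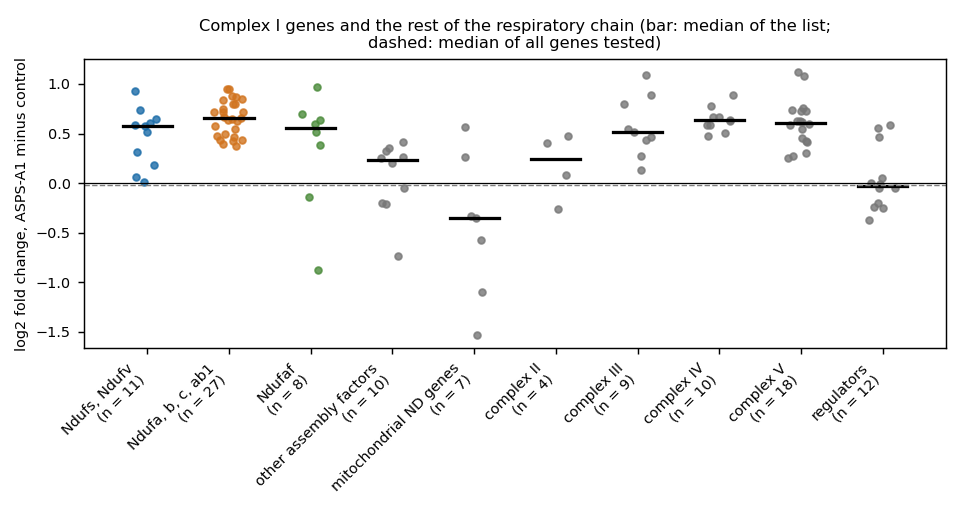
Log2 fold change (ASPS-A1 minus control) of each tested gene in the Nduf classes and in the other lists, with the median of each list as a bar and the median of all genes dashed. Complexes III, IV and V have medians of 0.51 to 0.63 under this TMM scaling, while the mitochondrial ND genes have a median of −0.36.

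Nuclear genes of the other complexes are given for reference. With the length and GC offsets the medians were 0.26 for complex III, 0.17 for complex IV and 0.19 for complex V, against 0.23 for the 46 Nduf genes. In complex III, ubiquinol-cytochrome c reductase, 9 of 9 rose (7 with library totals, and 5 against 2 lower with the length and GC offsets), with a median of 0.51, from Uqcrfs1 (0.13) to Uqcrq (1.09). The Uqcrfs1 call was lost without ASPS-A1 replicate 2 (adjusted p = 0.0992) and when control replicate 3 was left out (0.163). In complex IV, 10 of 10 rose (8 with the offsets), with a median of 0.63, from Cox6b1 (0.48) to Cox7c (0.89). In complex V, ATP synthase, 17 of 18 rose and 0 fell (15 and 0 with library totals, 11 and 1 with the offsets), with a median of 0.61, from Atp5d (0.25) to Atp5md (1.12). Atp5k did not pass (0.76, adjusted p = 0.0538) but was called when ASPS-A1 replicate 3, control replicate 1 or control replicate 2 was left out (adjusted p = 0.000252, 0.0243 and 0.00274). It was also called by DESeq2 (adjusted p = 0.0104), by limma-voom (3.44e-05), with no filter on low counts (1.99e-05) and with a block for library number (5.03e-08).

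Complex II, succinate dehydrogenase, has no mitochondrially encoded subunit. Its 4 genes were split, with Sdhb (0.47) and Sdhc (0.40) higher, Sdha (−0.26) lower and Sdhd (0.079, adjusted p = 0.135) not called (Sdhd was called lower with library totals and with the offsets). No test set complex I against these lists.

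Of 12 regulators of respiratory genes, 3 rose, 2 fell and 7 did not pass, with a median of −0.03 (3 rose and 6 fell with library totals, 5 and 1 with the offsets). Those named beside Esrra and Ppargc1a were picked after the values were seen. Esrra, which encodes the nuclear receptor ERRα, measured 47.4, 49.8 and 45.3 CPM with ASPS-A1 and 33.0, 31.5 and 30.4 CPM in control (log2 fold change 0.59 ± 0.07, adjusted p = 9.72e-10). Nrf1, nuclear respiratory factor 1, rose (0.47, adjusted p = 4.76e-07), as did the mitochondrial ribosomal RNA methyltransferase Tfb1m (0.55). Pprc1, a coactivator of the PGC-1 family (−0.24), and the mitochondrial DNA-packaging factor Tfam (−0.20) fell, though with length and GC offsets they stood at 0.042 and −0.048. The Tfam call was lost without ASPS-A1 replicate 1 (adjusted p = 0.125) and when control replicate 2 or 3 was left out (0.0518 and 0.0506). Ppargc1a, the PGC-1α gene, was scarce, at 0.424 to 1.03 CPM with ASPS-A1 and 0.542 to 1.06 CPM in control.

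Promoters were examined because these genes moved together. RefSeq windows (build GRCm38.p6) from 250 bases before to 50 after the gene start were found for 41 of the 46. Both strands were searched for GCGCA, any base and GCGC in a row (nuclear respiratory factor 1), CCGGAAG (ETS factors such as GABP), AAGATGGC (YY1) and AAGGTCA (ERR). No match of 1 motif overlapped a match of another in these windows. A match describes letters and is not a binding site.

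The nuclear respiratory factor 1 letters stood in 9 of the 41 (21.95%), in 4.6% of all 32851 windows, and in 11.9% of tested genes with a window. The YY1 letters stood in 8 (19.5%), in 2.75% of all windows and in 5.56% of tested genes. All 8 YY1 matches lay after the gene start, between bases 10 and 45 counted from 0 at the start. The ETS letters stood in 6 (14.6%, against 8.86% and 20.9%).

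The ERR letters stood in 3 of the 41 (7.32%), against 4.72% of all windows and 3.95% of tested genes. Those 3 were Ndufb4, Ndufb2 and Ndufs5, which ranked 2, 3 and 4 of the 41 by log2 fold change. With length and GC offsets they ranked 2, 9 and 8. Ranks were taken for this motif only. Ndufaf8, which had the largest log2 fold change under TMM scaling (0.97), held ETS and YY1 letters and no ERR letters. Across all 366 tested genes with these letters the median log2 fold change was 0.02, against −0.02 for the 9277 with a window. Of the 366, 33.9% were called higher, against 32.4% of the 9277. The shares called higher were larger for the ETS (41.2%), YY1 (39.1%) and nuclear respiratory factor 1 (36.7%) letters. The sequences before the start of Ndufb4, Ndufb2 and Ndufs5 are shown 5′ to 3′ along the gene, with motif letters in capitals. That of Ndufaf1, the gene that fell, follows and holds an ETS match.
Ndufb4 (chr16:37654369-37654568, minus strand): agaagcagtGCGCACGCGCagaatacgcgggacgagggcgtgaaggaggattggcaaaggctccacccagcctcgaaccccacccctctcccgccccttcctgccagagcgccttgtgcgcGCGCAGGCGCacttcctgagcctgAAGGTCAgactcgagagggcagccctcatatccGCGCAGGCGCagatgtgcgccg
Ndufb2 (chr6:39592365-39592564, plus strand): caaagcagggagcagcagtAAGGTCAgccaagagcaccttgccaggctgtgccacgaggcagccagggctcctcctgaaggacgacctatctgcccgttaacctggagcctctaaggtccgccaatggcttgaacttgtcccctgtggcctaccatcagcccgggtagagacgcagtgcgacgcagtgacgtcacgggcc
Ndufs5 (chr4:123718237-123718436, minus strand): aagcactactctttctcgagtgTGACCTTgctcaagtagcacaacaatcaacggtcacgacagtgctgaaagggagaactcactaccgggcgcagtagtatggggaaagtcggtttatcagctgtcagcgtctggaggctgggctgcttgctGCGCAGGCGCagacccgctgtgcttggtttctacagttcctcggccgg
Ndufaf1 (chr2:119662835-119662954, minus strand): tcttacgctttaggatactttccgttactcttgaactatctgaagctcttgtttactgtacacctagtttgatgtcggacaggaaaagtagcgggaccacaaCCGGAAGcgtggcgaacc
Ndufb4 carried 3 nuclear respiratory factor 1 matches beside its ERR match, and Ndufs5 carried 1 beside an ERR match on the other strand.

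The genes also shared deviations between libraries of the same group. In ASPS-A1, 37 of the 46 were highest in replicate 2 and 35 were lowest in replicate 3. In control, 32 were highest in replicate 2 and 27 lowest in replicate 3. The within-group coefficient of variation had a median of 7.38% with ASPS-A1 and 6.26% in control.

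It exceeded 15% in both groups for Ndufc1, Ndufa2, Ndufa3 and Ndufb1. Ndufa2 measured 69.6, 78.5 and 57.0 CPM with ASPS-A1 and 35.5, 50.9 and 38.3 CPM in control (log2 fold change 0.72 ± 0.20, adjusted p = 0.0296). Ndufa3 measured 42.7, 47.9 and 34.0 CPM against 23.2, 32.1 and 24.1 CPM (log2 fold change 0.65 ± 0.18, adjusted p = 0.0166). In all 4 genes replicate 2 was the highest library of both groups and ASPS-A1 replicate 3 the lowest treated library. The calls of Ndufa2 and Ndufa3, like that of Ndufc1, were lost when ASPS-A1 replicate 1 was left out (adjusted p = 0.0908 and 0.0752) and when control replicate 3 was (0.0986 and 0.0608). That of Ndufa2 was also lost without ASPS-A1 replicate 2 (0.0803).

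**Figure D4:**
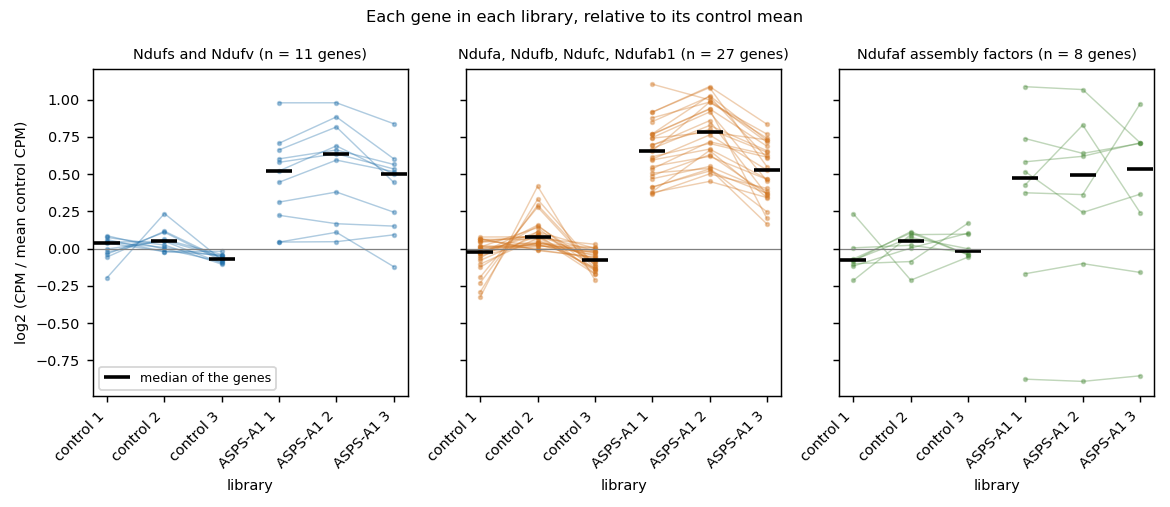
Log2 of each gene's CPM over its mean control CPM in the 6 libraries, by class, with lines joining libraries of 1 group and the median as a bar. In the subunit panels replicate 2 is high in both groups and ASPS-A1 replicate 3 is low among the treated libraries. In the Ndufaf panel the treated medians are 0.47, 0.49 and 0.54, and Ndufaf1 lies near −0.9 in all 3 treated libraries.

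Transcript length moved with the result. The 46 genes have short transcripts, with a median of 892 nt against 2834 nt for all genes tested with a known length. Among the 46, the Spearman coefficient between length and log2 fold change was −0.36, given as a description since the genes share libraries. The 15 shortest (419 to 683 nt) had median log2 ratios to the control mean of 0.67, 0.82 and 0.46 in the ASPS-A1 libraries, and the 16 longest (1166 to 3632 nt) of 0.41, 0.48 and 0.38.

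Offsets that remove, in each library, the trend of all genes on transcript length and GC content reduced the differences. With them 27 of the 46 rose, 3 fell and 16 did not pass, with a median of 0.23, while 62.5% of all genes were called, 32.4% higher and 30.1% lower. Among the Ndufs and Ndufv genes 7 rose and 1 (Ndufv3, −0.19, adjusted p = 0.00264) fell. Among the accessory genes 16 rose and 0 fell, and among the Ndufaf genes 4 rose and 2 (Ndufaf1 and Ndufaf7) fell. The largest values among those called were Ndufab1 (0.57), Ndufb4 (0.55), Ndufaf8 (0.54), Ndufaf4 (0.48) and Ndufa12 (0.48). Ndufa6 (−0.11), Ndufa1 (−0.13), Ndufb3 (−0.029) and Ndufa11 (−0.030) lost their call and had negative values. Ndufa1, a small membrane-arm subunit, measured 44.2, 45.2 and 36.9 CPM with ASPS-A1 and 30.4, 34.7 and 28.2 CPM in control, and Ndufa11, also of the membrane arm, 54.4, 58.6 and 52.8 against 42.0, 43.4 and 37.0 CPM. In both the groups lay apart before the offsets. How much of the length trend comes from the treatment and how much from the libraries cannot be told apart here.

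**Figure D5:**
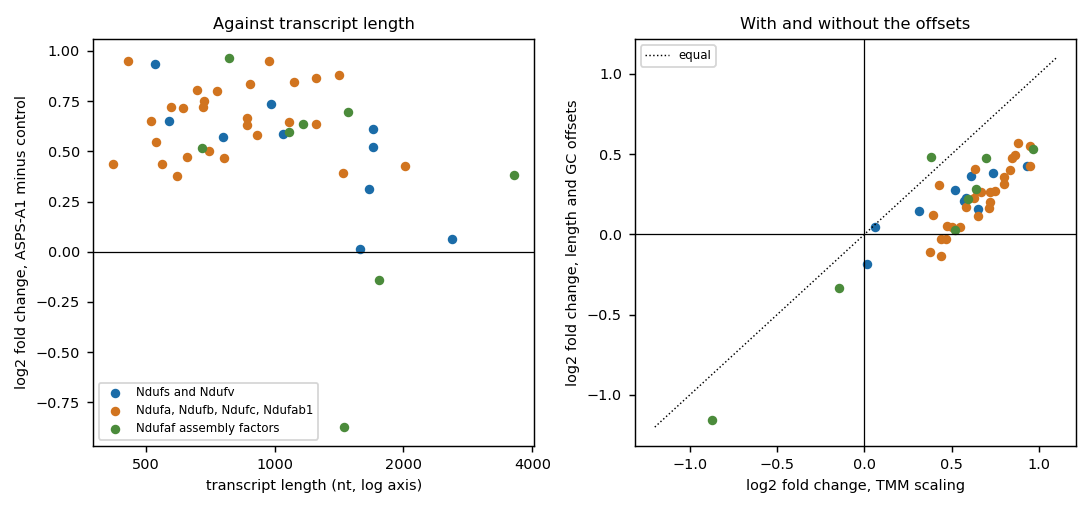
Left, log2 fold change against transcript length (log axis) for genes that were tested, by class. Right, log2 fold change under TMM scaling (horizontal) against that with length and GC offsets (vertical), where all points but Ndufaf4 lie below the dotted line of equality and the median drops from 0.62 to 0.23.

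The call was also lost, with a positive value left, for Ndufs6, Ndufa2, Ndufa3, Ndufa7, Ndufb7, Ndufb9, Ndufc1, Ndufaf2 and Ndufaf6. Ndufs6, a zinc-binding subunit, measured 46.0, 51.1 and 39.5 CPM with ASPS-A1 against 25.4, 34.2 and 27.5 CPM in control (0.16 with the offsets). Ndufa7 measured 106, 112 and 100.3 CPM against 68.8, 77.3 and 71.9 CPM (0.043 with the offsets). Ndufb9 measured 124, 136 and 114 CPM against 86.8, 90.3 and 87.0 CPM (0.048 with the offsets). All 3 had short transcripts and groups that lay apart under TMM scaling. Ndufaf2 measured 14.4, 19.0 and 12.7 CPM against 9.24, 11.4 and 11.5 CPM (0.028 with the offsets). Ndufaf6 measured 11.8, 11.7 and 17.9 CPM against 8.51, 8.595 and 10.3 CPM (0.22 with the offsets), with ASPS-A1 replicate 3 well above the other treated libraries.

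Some genes share exon sequence with a neighbour, which makes their counts less certain without a strand setting. At least 10% of the exon length was shared for 8 of the 46, Ndufb6 (39.0%, with Smim27), Ndufa13 (30.0%, with Tssk6), Ndufb9, Ndufb11, Ndufb1, Ndufb5, Ndufa2 and Ndufaf2.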

How the data were processed

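Poly(A)-selected RNA of 6 RAW 264.7 libraries was sequenced, 3 per group, grouped by the treatment label. The authors deposited raw counts per gene symbol in whole numbers. Tools named in the submitters' processing notes are HTSeq 0.9.1, HISAT2 2.1.0, DESeq 1.38.3 and fastp 0.22.0; build, annotation and strand setting: not given in the sources used here. Genes were kept with filterByExpr (minimum count 10, minimum total 15), scaled with TMM and fitted with edgeR 4.0.16 (robust quasi-likelihood test, two-sided, R 4.3.3), with Benjamini-Hochberg adjustment over 11686 genes and a threshold of 0.05. SEs were derived from the F statistic (size of the log2 fold change over the root of F). CPM use TMM-scaled library sizes. Transcript length, GC content and exon overlap came from GENCODE M21 (best supported transcript, found for 97.5% of tested genes). The offsets use a lowess trend (span 0.3). The scripts were tested on simulated data. Alternatives used DESeq2 1.42.0, limma-voom (limma 3.58.1), other scalings and filters, a block for library number, and each library left out. Within groups, pairs of libraries differed beyond counting noise (chi-square over its degrees of freedom at least 4.29). The genes, lists and tests were chosen with earlier results of these data known. The rule for named genes takes, per class, the 2 highest and 2 lowest log2 fold changes, the most abundant per kilobase, Ndufa4, Ndufa4l2, called falls and genes whose call depends on a setting, all mitochondrial ND genes, and the highest and lowest of each other list. 1 gene is counted in the totals and is not reported here.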

Additional observations from a re-analysis of the deposited data

How the results depend on the processing

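Over 15 alternatives, 641 of 675 values of single Nduf genes kept direction and side of the threshold. With the direction kept, 17 lost the call and 6 gained it. The other 11 changed sign, and some of these also lost their call or were called in the new direction. With length and GC offsets, the Nduf genes numbered 27 higher and 3 lower (median 0.23). By class the offsets gave 1 Ndufs or Ndufv gene lower (median 0.21), 16 accessory genes higher (median 0.26) and 2 Ndufaf genes lower (median 0.25). With scaling by library totals, 4 Nduf genes were lower (median 0.43), among them 2 Ndufs or Ndufv genes (median 0.38) and 2 Ndufaf genes (median 0.36), and the accessory median was 0.46. With upper-quartile factors 2 Nduf genes were lower, both of them Ndufaf genes (median 0.50). The cause was not tested, beyond the trend or scale that each alternative removes by construction.

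Without 1 library at a time, the number of Nduf genes higher ran from 38 to 42, the accessory number from 23 to 27, the Ndufaf median from 0.48 to 0.62 and the Ndufs and Ndufv minus accessory difference of medians from −0.14 to −0.057. Among genes named in the text, values that changed sign with library totals included Ndufs1 (−0.13), Ndufv3 (−0.18), Uqcrfs1 (−0.067) and Sdhd (−0.12). With the offsets they included Ndufb3 (−0.029), Ndufa6 (−0.11), Ndufv3 (−0.19), Ndufa11 (−0.030), Ndufa1 (−0.13), ND4L (−0.39), Dmac1 (−0.051), Uqcrfs1 (−0.16), Cox6b1 (−0.026), Atp5d (−0.061), Acad9 (0.12), Sdhd (−0.25) and Pprc1 (0.042). Ndufv3 also had −0.037 with upper-quartile factors and ran from −0.040 to 0.078 without 1 library at a time, below 0 when ASPS-A1 replicate 2, control replicate 1 or control replicate 3 was left out.

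With a replicate block for library number, 42 Nduf genes were higher and 1 lower, and Ndufb1 was called (0.67, adjusted p = 8.62e-08). The numbers are not known to pair the libraries. Deviations of same-numbered libraries had correlations of −0.0138, 0.00709 and 0.00398 across all genes tested. Each treated library had its highest correlation with a control library of another number. Among the 46 Nduf genes, though, replicate 2 was most often highest (37 with ASPS-A1, 32 in control) and replicate 3 most often lowest (35 and 27). Genes under about 0.16 CPM in a library could not be told from absent at this depth.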
